A study of Homo sapiens with 4 samples.

Results

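The 42 genes described here encode factors that build ribosomes in the nucleolus. They were chosen by name from the 60671 genes of the deposited table, and each name matched 1 row. RNA with a poly(A) tail was sequenced from 4 libraries of H9, a long-established line of human embryonic stem cells kept in mTeSR medium. The labels call 2 libraries control and give 2 the genotype CFIm25 KO+ 3Flag-CFIm25 overexpression, called KO+OE here. CFIm25, encoded by NUDT21, belongs to cleavage factor I, a complex of mRNA 3′ end processing. The study describes its edited lines as clones with a shortened CFIm25 at a low level, and its re-expressing cells as 1 such clone given a lentiviral 3Flag-CFIm25 behind an EF1 promoter. The labels do not say whether replicates were separate cultures, so every p-value here measures the spread between these libraries, which may be technical. The comparison asks whether ribosome biogenesis transcripts in the re-expressing line stood apart from those of control cells. The series title speaks of knockdown (KD) where the genotype label has KO, and the labels say only control, where the study names mock control cells, which it describes as transfected with the empty editing vector. Edited cells without re-expression were not analysed here.

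Levels are given in TPM, the share of transcripts per gene after division by transcript length, scaled to a common total. The unit was inferred from the values, and the order of levels between genes is given as listed, with GC content and transcript length not corrected for. The libraries listed 12179 to 12332 genes at 1 TPM or more, and their read depth is unknown because the table holds no counts. NUDT21 was listed at 161 and 152 TPM (control) and 162 and 157 TPM (KO+OE), so its RNA did not tell the groups apart. The 8 pluripotency markers summed to between 3206 and 3241 TPM in every library, most of it POU5F1 at 2164 to 2212 TPM. NANOG was listed at 15.85 to 19.89 TPM and SOX2 at 18.19 to 19.36 TPM. The 3 ectoderm markers stayed under 1 TPM, as did 3 of 4 endoderm and 3 of 4 mesoderm markers, with GATA6 at 4.35 to 8.39 TPM and KDR at 7.79 to 8.37 TPM. Of 5 fibroblast markers COL3A1 and DCN stayed under 1 TPM, and THY1, COL1A1 and COL1A2 did not. The fibroblast list summed to 1297 and 1420 TPM in control and to 1360 and 1412 TPM in KO+OE, most of it THY1, which embryonic stem cells also carry.

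Ribosome production begins in the nucleolus, where RNA polymerase I transcribes a long ribosomal RNA precursor. Small nucleolar ribonucleoproteins guide its methylation, the small subunit processome folds and cuts its first part, and a separate set of factors assembles the large subunit around the rest. Embryonic stem cells have prominent nucleoli, and many of these genes are known targets of MYC, which binds the E-box CACGTG together with MAX.

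Windows at transcript starts were therefore searched for that motif, to describe the genes beyond their names. Promoter windows of 250 bases before and 50 bases after the start of a RefSeq transcript (GRCh38.p14) were given for 35 of the 42 genes. The start used can lie inside the gene span, as for BYSL and PES1. CACGTG, which reads the same on both strands, was found in 14 of these 35 windows, or 40%. Over all 27305 windows 7.43% held it, over the 8850 windows of genes tested below 10.3%, and over 94 windows of other ribosome biogenesis genes 29.8%. The 35 windows include those of UTP15, without a match, and UTP20, with 1, which were not among the genes tested. The 14 genes held 15 matches, since UTP18 had 2, and 13 of the 15 lay within 100 bases of the start. NCL, NPM1, NPM3 and NOP56 were among the genes whose windows held no match.

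FBL, the gene with the highest level of the 42, and NOP2, the gene with the lowest unadjusted p in the comparison of the groups, are shown with their whole windows and the E-box in capitals. The windows are chr19:39846330-39846629 for FBL and chr12:6568242-6568541 for NOP2, both on the minus strand.
FBL: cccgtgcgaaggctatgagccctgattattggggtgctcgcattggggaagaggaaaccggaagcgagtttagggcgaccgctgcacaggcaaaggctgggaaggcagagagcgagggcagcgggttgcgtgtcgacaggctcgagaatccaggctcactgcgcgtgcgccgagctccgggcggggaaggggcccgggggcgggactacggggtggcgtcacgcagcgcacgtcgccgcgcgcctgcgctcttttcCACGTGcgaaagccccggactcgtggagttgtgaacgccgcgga
NOP2: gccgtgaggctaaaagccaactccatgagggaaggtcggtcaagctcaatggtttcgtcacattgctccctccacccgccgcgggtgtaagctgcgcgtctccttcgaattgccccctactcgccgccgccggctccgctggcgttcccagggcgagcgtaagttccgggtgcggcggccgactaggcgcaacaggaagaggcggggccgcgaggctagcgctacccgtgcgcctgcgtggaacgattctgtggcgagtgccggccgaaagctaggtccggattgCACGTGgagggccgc

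The other 10 genes with a match within 100 bases of the start are shown as 30 bases around it, to let the flanks be compared across small subunit factors (RRP9, UTP4, UTP18, UTP20, NOP14, WDR43, BYSL and LTV1) and large subunit factors (PES1 and MRTO4). Capitals mark the E-box. The stretches are chr3:51941892-51941921 on the minus strand for RRP9, chr16:69132621-69132650 on the plus strand for UTP4, chr17:51260538-51260567 on the plus strand for UTP18, and chr12:101280083-101280112 on the plus strand for UTP20. They are chr4:2963374-2963403 on the minus strand for NOP14, chr2:28894658-28894687 on the plus strand for WDR43, chr6:41921515-41921544 on the plus strand for BYSL, and chr6:143843354-143843383 on the plus strand for LTV1. They are chr22:30591880-30591909 on the minus strand for PES1 and chr1:19251807-19251836 on the plus strand for MRTO4.
RRP9: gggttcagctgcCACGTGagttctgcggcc
UTP4: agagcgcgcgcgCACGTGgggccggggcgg
UTP18: gcagcgaggttcCACGTGagcgcctgcgtt
UTP20: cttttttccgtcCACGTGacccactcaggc
NOP14: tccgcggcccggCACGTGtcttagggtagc
WDR43: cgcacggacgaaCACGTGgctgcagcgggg
BYSL: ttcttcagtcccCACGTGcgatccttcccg
LTV1: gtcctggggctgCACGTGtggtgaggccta
PES1: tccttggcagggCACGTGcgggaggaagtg
MRTO4: cgtcttccgccgCACGTGgattcagcgcga

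**Figure D1:**
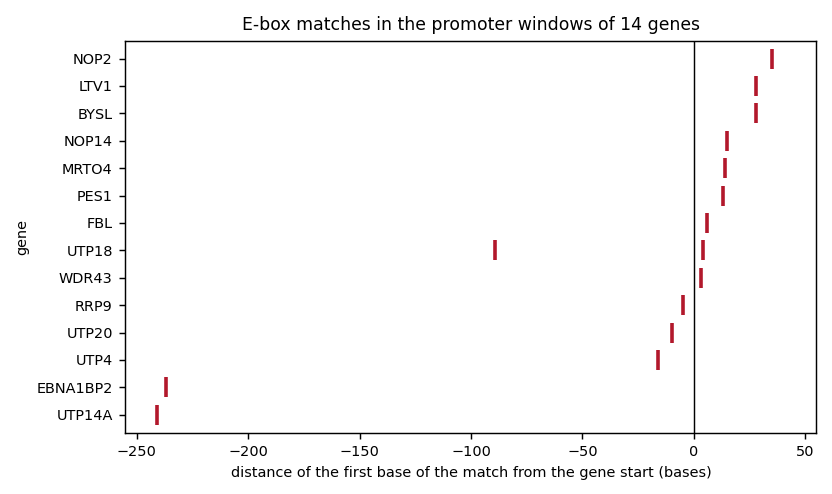
Each mark is 1 match to CACGTG in the promoter window of a gene, for the 14 genes with a match. It is placed by its distance in bases from the RefSeq transcript start used (vertical line at 0). Of the 15 matches, 13 lie within 100 bases of the start, and those of EBNA1BP2 and UTP14A lie far upstream.

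A match is a description of these letters and not a bound site. Genes with and without a match had like medians in the comparison of the groups. The median log2 fold change was 0.0025 over the 13 tested genes with a match and 0.0030 over the 20 without, beside -0.012 over all genes tested. Since the median over all genes also lay near 0, the likeness says nothing about the motif. FBL and UTP20, which both hold a match, were the highest and the lowest of the 42 genes by level.

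A second feature described was the presence of small nucleolar RNA genes within the gene span in the RefSeq annotation. They lay inside 8 of the 42 genes (19.0%), against 3.51% of the 10461 protein-coding genes tested that were found there. NOP56 and GNL3 each held 5, and NCL held SNORA75, SNORD20 and SNORD82. The other hosts were NOP58, WDR43, TSR1, PPAN and UTP20.

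The levels of the 42 genes spanned a wide range that was nearly the same in every library. They summed to 2709 and 2754 TPM in control and to 2766 and 2737 TPM in KO+OE, which was 0.274% to 0.280% of each library. Of the 42 genes, 6 had a mean of at least 100 TPM over the 4 libraries, 22 lay from 10 to 100 TPM, 12 from 1 to 10 TPM and 2 under 1 TPM. Their median was 24.3 TPM, against 7.77 TPM over the 12319 genes averaging 1 TPM or more. FBL alone made up 41.4% to 42.6% of the sum. In the order of levels, 18 of the 41 neighbouring pairs had ranges over the 4 libraries that did not overlap, and the other 23 pairs had ranges that overlapped.

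**Figure D2:**
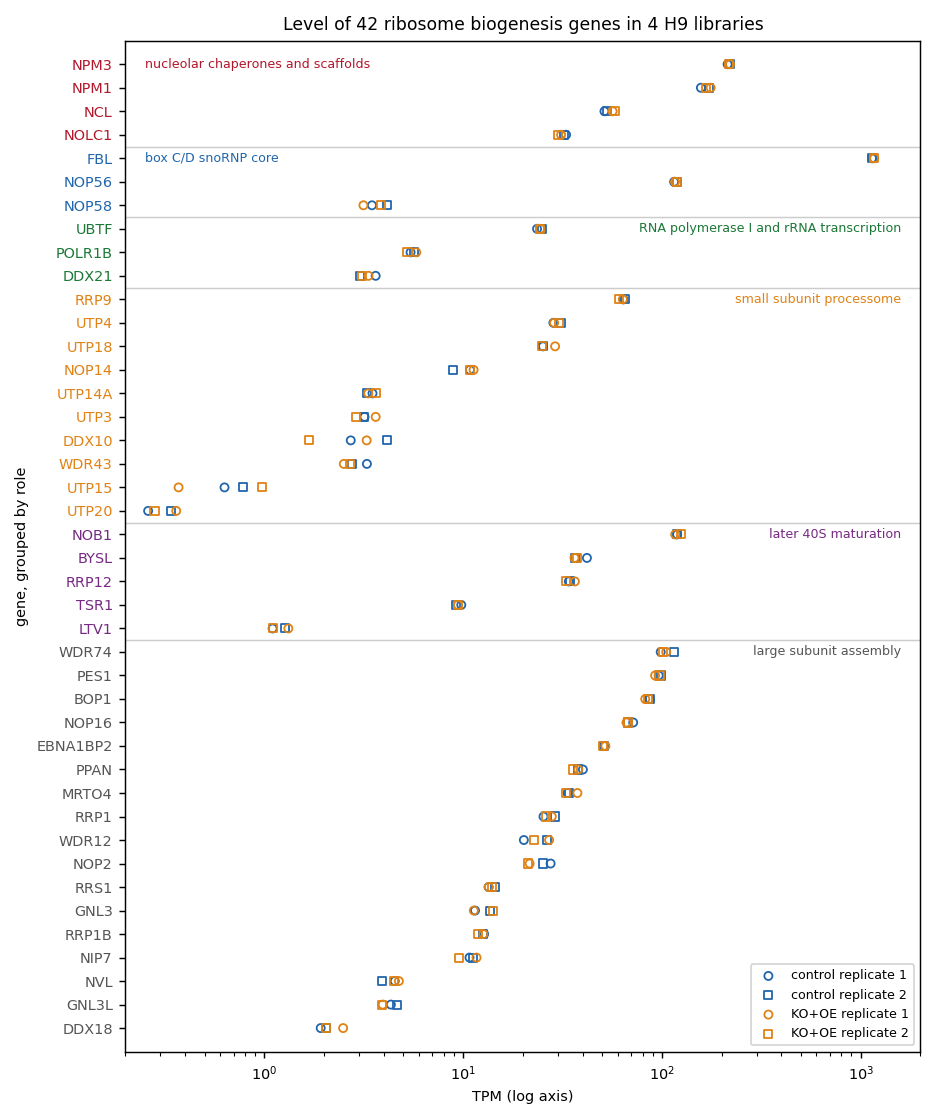
Each row is 1 of the 42 genes, grouped by role, and each symbol is its level in 1 library in TPM on a log axis, blue for control and orange for KO+OE, circles for replicate 1 and squares for replicate 2. The 4 symbols lie close together for most genes and further apart for some low ones, such as DDX10 (1.67 to 4.14 TPM) and UTP15 (0.37 to 0.97 TPM). Genes range from UTP20 at 0.26 to 0.36 TPM to FBL at 1139 to 1171 TPM.

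The fit over all genes then compared the groups on the scale log2(TPM + 1), with limma, over the 12319 genes averaging 1 TPM or more. Of the 42 genes, 40 passed this filter, and UTP15 and UTP20 did not. None of the 40 passed an adjusted p of 0.05, where 0.00812% of all genes tested did, and their lowest adjusted p was 0.928. At an unadjusted p under 0.05 there were 2 of 40 genes, NCL and NOP2, or 5%, beside a background of 5.33%. NCL was the 1 gene higher in KO+OE, where 2.26% of all genes tested were, and NOP2 the 1 gene lower, where 3.06% were. The median log2 fold change was -0.0050, with 19 genes higher and 21 lower in KO+OE, beside -0.012 over all genes tested. Leaving out control replicate 2 moved the median to 0.019, with 24 genes higher, and leaving out KO+OE replicate 1 moved it to -0.028, with 14 higher.

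The intervals of the fold change are given beside those of all genes tested. Median levels were 24.3 TPM over the 42 genes and 7.77 TPM over all genes tested. No comparison at like levels was made. On the scale of TPM + 1, the 95% confidence interval of limma lay within 1.5-fold in either direction for 39 of the 40 genes, against 71.0% of all genes tested and within 2-fold for the same 39, against 92.6%. DDX10 was the exception. A fold of TPM + 1 understates the fold of TPM for genes at a few TPM such as LTV1, WDR43 and DDX18, whose intervals are wider in TPM. The median absolute log2 difference was 0.080 between the control replicates and 0.078 between the KO+OE replicates over the 40 genes, beside 0.112 and 0.110 over all genes tested. Because these are bulk libraries, fewer cells of a type and less RNA per cell cannot be told apart in any of these values.

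**Figure D3:**
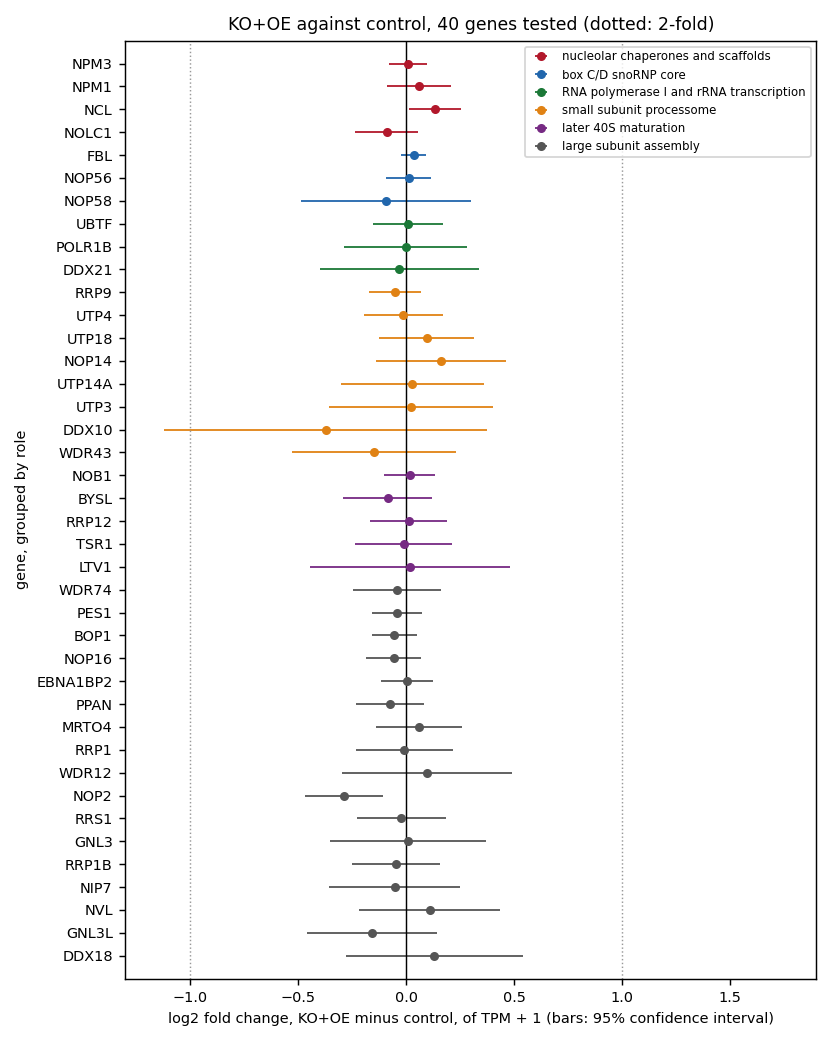
Points are log2 fold changes of TPM + 1, KO+OE minus control, for the 40 genes tested, coloured by role, and bars are 95% confidence intervals from limma. Only the intervals of NCL (0.012 to 0.25) and NOP2 (-0.47 to -0.11) leave out 0, and only that of DDX10 reaches past a 2-fold difference (dotted).

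Counts of genes whose groups did not overlap were also near the background. In 4 of 40 genes (10%) both KO+OE libraries lay above both control libraries, against 14.5% of all genes tested, and in 7 of 40 (17.5%) both lay below, against 19.6%. The 4 higher genes were NCL, FBL, NOP14 and DDX18. The 7 lower genes were NOLC1, RRP9, NOP2, NOP16, BOP1, GNL3L and WDR43. With 2 libraries against 2, an exact permutation test of 1 gene cannot give a two-sided p below 0.333.

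NCL, NPM1, NPM3 and NOLC1 are abundant nucleolar proteins. NCL encodes nucleolin, which binds the ribosomal RNA precursor and its genes (chr2:231453531-231464484 in GRCh38.p14). NCL was listed at 51.4 and 52.7 TPM (control) and 56.5 and 57.8 TPM (KO+OE). Both KO+OE libraries lay above both control libraries, by 9.76% on average, with a log2 fold change of 0.13 ± 0.047 (SE), an unadjusted p = 0.0368 and an adjusted p = 0.928 from limma. No unadjusted p of NCL was under 0.05 once any 1 of the 4 libraries was left out, with values from 0.0688 to 0.137, or without the mean-dependent prior, where it was 0.116.

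NPM1 encodes nucleophosmin, a histone chaperone that shuttles ribosomal subunits, and NPM3 its smaller relative. NPM1 was listed at 157 and 172 TPM (control) and 176 and 166 TPM (KO+OE), so the groups overlapped. NPM3 was listed at 214 and 220 TPM (control) and 220 and 217 TPM (KO+OE), with a log2 fold change of 0.0082 and a 95% interval of -0.079 to 0.095. NPM3 stood above NPM1 in every library, by 1.252-fold to 1.363-fold. The table also lists 46 processed copies of NPM1, of which 11 were above 0 in some library, and these summed to 1.12 to 1.69 TPM per library. How reads shared between NPM1 and its copies were assigned is not given in the sources used here. NOLC1, a chaperone of small nucleolar ribonucleoproteins, was lower in both KO+OE libraries, at 33.0 and 32.2 TPM in control and 31.1 and 29.95 TPM in KO+OE, with an adjusted p = 0.938.

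FBL, NOP56 and NOP58 encode proteins of 1 particle, the box C/D ribonucleoprotein, in which the methyltransferase fibrillarin (FBL) sits on a platform of NOP56 and NOP58. FBL (chr19:39834458-39846379) was listed at 1142 and 1139 TPM (control) and 1171 and 1165 TPM (KO+OE). Both KO+OE libraries were higher, by 2.40% on average, with a log2 fold change of 0.034 ± 0.023 (SE) and an adjusted p = 0.938. NOP56 was listed at 115 and 119 TPM (control) and 116 and 120 TPM (KO+OE). The libraries of the groups interleaved for NOP56, and so they did for NOP58, which stood at 3.48 and 4.13 TPM (control) and 3.15 and 3.86 TPM (KO+OE). The transcripts of this particle were thus listed far apart in level, with GC content not corrected for. NOP56 was 28.8-fold to 36.98-fold above NOP58, and FBL 276-fold to 372-fold above NOP58, in the 4 libraries.

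UBTF, POLR1B and DDX21 act on transcription of ribosomal DNA. UBTF, the factor that opens ribosomal RNA genes for polymerase I, was listed at 23.6 and 24.99 TPM (control) and 24.4 TPM in both KO+OE libraries. POLR1B, the second largest subunit of polymerase I, was listed at 5.44 and 5.63 TPM (control) and 5.81 and 5.25 TPM (KO+OE), and DDX21, a helicase, at 3.63 and 3.02 TPM and at 3.34 and 3.10 TPM. For each of the 3 genes the groups overlapped, and their log2 fold changes ran from -0.032 to 0.0091.

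The small subunit processome was represented by 10 genes, of which 8 were tested, 4 higher and 4 lower in KO+OE, with a median log2 fold change of 0.0043. None passed an adjusted p of 0.05 and none had an unadjusted p under 0.05. RRP9, a protein specific to the U3 particle, was the highest of them with 64.8 ± 0.933 TPM for control and 62.4 ± 1.75 TPM for KO+OE (SD, n = 2 each). UTP4 and UTP18, which belong to early modules of the processome, had means of 29.7 and 26.1 TPM over the 4 libraries, and UTP3, UTP14A and WDR43 had means from 2.81 to 3.44 TPM.

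NOP14, which joins the processome on the small subunit side, had the highest log2 fold change of the 40 genes, 0.16 with a 95% interval of -0.14 to 0.46. It was listed at 10.8 and 8.86 TPM (control) and 11.3 and 10.9 TPM (KO+OE), so control replicate 2 was the library that stood apart. The fold change of NOP14 was 0.031 without that library and 0.29 without control replicate 1. DDX10, a helicase, had the lowest, -0.37 with an interval of -1.12 to 0.38. DDX10 was listed at 2.72 and 4.14 TPM (control) and 3.27 and 1.67 TPM (KO+OE), and the groups overlapped. Its fold change was -0.71 without KO+OE replicate 1, -0.034 without KO+OE replicate 2, -0.61 without control replicate 1 and -0.14 without control replicate 2. WDR43 was listed at 3.28 and 2.75 TPM (control) and 2.51 and 2.71 TPM (KO+OE), without overlap by a margin smaller than the gap between replicates.

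The 2 genes below the filter were also of the processome. UTP15 was listed at 0.63 and 0.78 TPM (control) and 0.37 and 0.97 TPM (KO+OE). UTP20, a very large scaffold protein, was listed at 0.26 and 0.34 TPM (control) and 0.36 and 0.28 TPM (KO+OE). The groups overlapped for both, and without the filter limma gave adjusted p-values of 0.971 and 0.968.

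Later steps of small subunit maturation were represented by BYSL, NOB1, TSR1, LTV1 and RRP12, with 3 genes higher, 2 lower and log2 fold changes from -0.086 to 0.019. NOB1, the nuclease that makes the last cut at the end of the small subunit RNA, was listed at 119.3 and 119.0 TPM (control) and 117 and 124 TPM (KO+OE). LTV1, an export adaptor, was listed at 1.10 and 1.27 TPM (control) and 1.32 and 1.11 TPM (KO+OE). The groups overlapped for both genes and for BYSL, TSR1 and RRP12, whose means over the 4 libraries were 38.0, 9.46 and 34.5 TPM.

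Large subunit assembly was the largest group, with 17 genes tested, 6 higher and 11 lower in KO+OE and a median log2 fold change of -0.042. NOP2, a methyltransferase of large subunit RNA that is linked to proliferation (chr12:6556871-6568291), had the lowest unadjusted p of the 42 genes. NOP2 was listed at 27.6 and 25.3 TPM (control) and 21.6 and 21.2 TPM (KO+OE). Both KO+OE libraries lay below both control libraries, with an average change of -18.9%, and the gap between the groups was wider than the gap between replicates. The log2 fold change was -0.29 ± 0.070 (SE), with an unadjusted p = 0.00926 and an adjusted p = 0.928 from limma, so NOP2 did not pass over all genes. With 1 library left out it ran from -0.35 to -0.23, the latter when control replicate 1 was dropped, where the unadjusted p was 0.0509.

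PES1, BOP1 and WDR12 form the PeBoW complex, which is needed to process the large subunit RNA. PES1 was listed at 96.4 and 99.0 TPM (control) and 92.5 and 97.3 TPM (KO+OE), and BOP1 at 86.7 and 87.1 TPM and at 82.5 and 84.7 TPM. BOP1 was lower in both KO+OE libraries, with an average change of -3.74% and an adjusted p = 0.942, and PES1 overlapped. WDR12 was listed at 20.2 and 26.6 TPM (control) and 27.1 and 22.8 TPM (KO+OE), an overlap with wide gaps within each group. PES1 thus stood above BOP1 by 1.11-fold to 1.15-fold and above WDR12 by 3.41-fold to 4.77-fold.

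Related genes of this group kept their order in the 4 libraries. RRP1 was listed at 25.4 and 29.0 TPM (control) and 28.0 and 26.1 TPM (KO+OE), and its relative RRP1B at 12.8 and 12.6 TPM and at 12.6 and 11.9 TPM. RRP1 was 1.99-fold to 2.30-fold above RRP1B. GNL3, which encodes the GTPase nucleostemin, named for its abundance in stem cells, was listed at 11.5 and 13.7 TPM (control) and 11.3 and 14.1 TPM (KO+OE). Its relative GNL3L was listed at 4.33 and 4.65 TPM (control) and 3.94 and 3.89 TPM (KO+OE), lower in both KO+OE libraries with a log2 fold change of -0.16 and an adjusted p = 0.942. GNL3 was 2.65-fold to 3.63-fold above GNL3L.

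DDX18, a helicase of the large subunit, was listed at 1.92 and 2.04 TPM (control) and 2.49 and 2.05 TPM (KO+OE). The groups were separate by 0.01 TPM, and the log2 fold change of 0.13 became 0.034 when KO+OE replicate 1 was left out and 0.23 when replicate 2 was. The remaining members of the group had means from 4.42 TPM for NVL, an ATPase, to 105 TPM for WDR74. NOP16 was lower in both KO+OE libraries, with 69.8 ± 2.80 TPM for control and 66.95 ± 0.863 TPM for KO+OE (SD, n = 2 each), and NIP7, RRS1, MRTO4, PPAN, EBNA1BP2, NVL and WDR74 overlapped. PPAN shares its locus with the read-through gene PPAN-P2RY11, listed at 3.50 to 5.12 TPM, and 8 of the 42 genes overlap another protein-coding gene in the RefSeq annotation. The sources used here do not say whether counting used strand, so these values are uncertain.

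Levels of the 42 genes went with features of their transcripts. Across the 41 genes with a canonical transcript in GENCODE release 44, the Spearman correlation of the mean TPM was 0.684 with the GC content of the transcript and -0.608 with its length. GC content and length were themselves correlated at -0.391. TPM is itself divided by a transcript length, so level and length are not independent measures. Genes are not independent replicates, and all these values come from the same 4 libraries, so no p is given. Over the 12147 genes tested that had a GC content the same correlations were 0.275 and -0.192.

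The 12 genes under 5 TPM had a median GC content of 42.1%, with a highest of 48.4% in UTP14A, and a median length of 3362 bases. The 11 genes at 50 TPM or more that had a GC content had a median of 54.4% and a median length of 1352 bases. The partners and relatives compared above followed this order of GC content where both had a value, apart from GNL3 and GNL3L. GC content was 57.2% in FBL, 51.7% in NOP56 and 40.9% in NOP58, and it was 57.9% in PES1 against 39.6% in WDR12. It was 55.8% in NPM3 against 41.3% in the lower NPM1, and 60.2% in RRP1 against 50.5% in the lower RRP1B. GNL3 went the other way, with 42.2% against 45.4% in the lower GNL3L. Among the 41 genes, NPM1 stood high for its GC content, at 168 TPM. The part of GC content and length in the listed levels was not tested. The log2 fold changes of the 39 tested genes with a GC content had Spearman correlations of -0.158 with GC content and -0.015 with length.

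**Figure D4:**
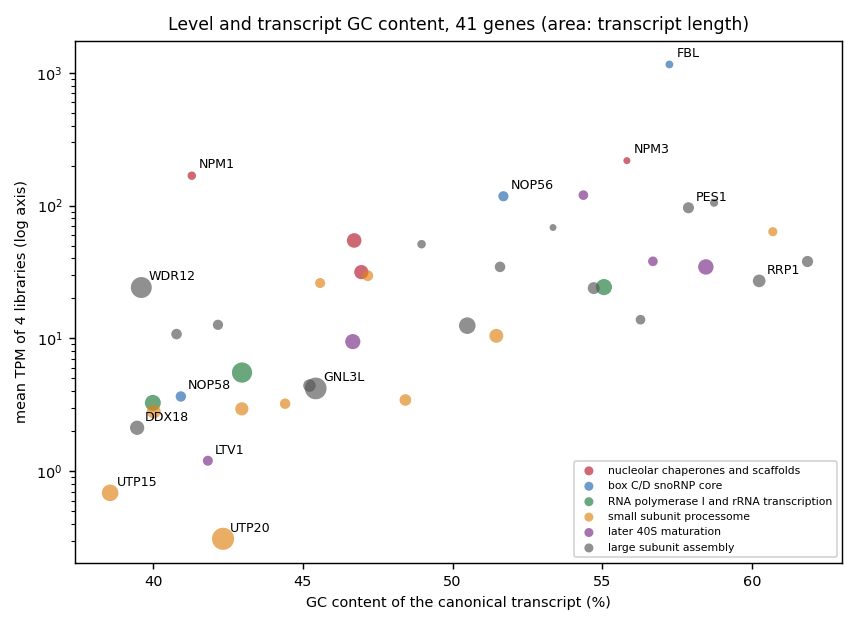
Each point is 1 of the 41 genes with a canonical transcript, placed by the GC content of that transcript in percent and by its mean level over 4 libraries in TPM on a log axis, with an area in proportion to transcript length. Levels tend to rise with GC content, with UTP15 and UTP20 at the lower left and NPM1 above the trend. FBL is the highest point, and some genes such as PPAN and RRP9 lie further right at lower levels.

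Other genes of the pathway were described in the same way. Of 109 further ribosome biogenesis genes, 94 averaged 1 TPM or more, with 43 higher and 51 lower in KO+OE and a median log2 fold change of -0.0099. None passed an adjusted p of 0.05, and 6 of 94 (6.38%) had an unadjusted p under 0.05, beside 5.33% of all genes tested. That count was 2 of 93 when either KO+OE library was left out. NOP53 and NHP2, factors of the large subunit and of box H/ACA particles, had the highest levels of these, with means of 1020 and 511 TPM.

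Those 6 genes were NIFK and RBM28, higher, and RRP7A, DDX31, TSR3 and PDCD11, lower. RRP7A, a processome protein, was listed at 34.8 and 31.2 TPM (control) and 24.97 and 26.1 TPM (KO+OE), which gave -0.36 on the log2 scale (limma, adjusted p = 0.912). NIFK, which binds the proliferation antigen Ki-67, was listed at 13.4 and 10.7 TPM (control) and 16.0 TPM in both KO+OE libraries, which gave 0.39 on the log2 scale (adjusted p = 0.928). Neither passed over all genes, though the groups did not overlap. The lowest fold change was that of WDR75 at -0.52, where control replicate 2 stood at 8.79 TPM and the other libraries at 3.53 to 4.38 TPM, and the highest was that of NOL8 at 0.40, listed at 0.73 and 0.72 TPM (control) and 1.08 and 1.5 TPM (KO+OE). NOL8 passed the filter only through KO+OE, since its control mean was 0.725 TPM.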

How the data were processed

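RNA-seq libraries of control (2) and KO+OE (2) H9 cells were grouped by sample title. The authors deposited a single table (60671 genes, a column for each library). No unit is named in it, and the deposited values are read as TPM because each column sums to between 986853 and 987078 and holds decimals rounded to 2 places. The submitters' processing notes name HISAT2, featureCounts (Subread), DESeq2 and hg38, with no role or version. The annotation version is not given in the sources used here. The table holds no counts, so the study's DESeq2 was not run.

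Values were compared as log2(TPM + 1), which understates changes of low genes, with limma 3.58.1 in R 4.3.3 (lmFit, eBayes with a mean-dependent prior, two-sided, group as the only term) over genes averaging 1 TPM or more, and p-values were adjusted by Benjamini-Hochberg over all of them. The step was also run on simulated data, whose outcome is not given here, so it adds no support to the counts above. The 42 genes, their roles and the 109 further genes were chosen with earlier results of these data known. Values in each library are given for the 5 highest and 5 lowest levels, an unadjusted p under 0.05, the 3 highest and 3 lowest fold changes and related or complexed genes. Of the further genes, those at the extremes were named, and TSR3, DDX31, PDCD11 and RBM28 were added to them with their values known. POU5F1, NANOG, SOX2, GATA6, KDR, THY1, COL1A1, COL1A2, COL3A1 and DCN belong to marker lists.

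Positions and promoters came from RefSeq (GRCh38.p14), matched by symbol. Transcript GC content and length came from GENCODE release 44 (GRCh37 lift), matched by Ensembl identifier, with no value for BOP1. No coordinates of that build are printed. Python 3.11.15, pandas 2.3.3, numpy 2.4.6, scipy 1.17.1 and matplotlib 3.10.9 were used. Alternatives were pseudocounts of 0.1 and 5, no filter or one at 5 TPM, median-ratio and quantile scaling, no mean-dependent prior, a replicate block, and leaving out each library.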

Additional observations from a re-analysis of the deposited data

How the results depend on the processing

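Of the 42 genes, none of those tested (40 in most of the 12 alternatives, 30 with the filter at 5 TPM and 42 with no filter) passed an adjusted p of 0.05, and the lowest adjusted p reached was 0.816. Depth is unknown, so precision rests on 2 libraries per group, and where 1 library was left out the lone library was assumed to vary like the other group. The count of all genes passing fell from 1 to 0 with pseudocounts of 0.1 and 5, with no filter, with one at 5 TPM, with quantile normalization and with the replicate block, and ran from 0 to 9 (without control replicate 2) when 1 library was left out; the cause was not tested. The count at an unadjusted p under 0.05 was 656, and 1314 with no filter and 412 with one at 5 TPM, which test more and fewer genes. Of the 40 genes 2 had such a p, 3 with quantile normalization (FBL besides NCL and NOP2), 1 without the mean-dependent prior, and 0 (without control replicate 1) to 1 when 1 library was left out. The median log2 fold change of the 40 genes ran from -0.028 (without KO+OE replicate 1) to 0.019 (without control replicate 2). It was 0.0066 with median-ratio scaling and 0.0073 with quantile normalization, with 21 and 22 of 40 genes higher. Of the further genes 6 of 94 had an unadjusted p under 0.05, and 2 (without either KO+OE library) to 5 when 1 library was left out. Their median ran from -0.019 (without KO+OE replicate 1) to 0.0036 (without control replicate 2).

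Same-numbered libraries did not deviate together (correlation -0.049), so the numbers were not taken to pair the libraries. With the replicate block 673 genes had an unadjusted p under 0.05, 2 of them among the 40, and the median of the 40 stayed at -0.0050.

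Signs near 0 turned with the scaling. The log2 fold change was 0.0085 for POLR1B and 0.0046 for RRP1 with median-ratio scaling, and 0.0036 for POLR1B, 0.010 for UTP4 and 0.0042 for TSR1 with quantile normalization. Leaving out 1 library turned the sign for 24 of the 40 genes. The range was -0.18 to 0.012 for BYSL, -0.13 to 0.069 for DDX21, -0.019 to 0.023 for EBNA1BP2, -0.14 to 0.16 for GNL3, -0.049 to 0.088 for LTV1, -0.032 to 0.15 for MRTO4, -0.19 to 0.083 for NIP7 and -0.030 to 0.061 for NOB1. It was -0.012 to 0.033 for NOP56, -0.21 to 0.020 for NOP58, -0.0048 to 0.12 for NPM1, -0.012 to 0.029 for NPM3, -0.064 to 0.060 for POLR1B, -0.10 to 0.086 for RRP1, -0.060 to 0.086 for RRP12 and -0.073 to 0.026 for RRS1. It was -0.051 to 0.027 for TSR1, -0.032 to 0.050 for UBTF, -0.021 to 0.079 for UTP14A, -0.0077 to 0.20 for UTP18, -0.10 to 0.15 for UTP3, -0.077 to 0.050 for UTP4, -0.093 to 0.28 for WDR12 and -0.15 to 0.065 for WDR74. The other 16 genes, NCL and NOP2 among them, kept their sign.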
